A study of Mus musculus with 21 samples.

Results

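Messenger RNA of the chemokine CCL21, of its partner ligand CCL19 and of their receptors CCR7 and ACKR4 was measured in mouse forebrain by poly(A) RNA-seq. These are 8 genes of the 55401 gene rows in the deposited tables: the 5 annotated Ccl21 copies of chromosome 4 (Ccl21a, Ccl21b, Gm21541, Gm13304 and Gm10591), Ccl19, Ccr7 and Ackr4. Gm21541 also carries the name Ccl21d. The copies were chosen from their measured difference between APOE lines in these same mice, so that difference is described here without a test. The tests below are of the P301S tau effect on all 8 genes and of the line differences of Ccl19, Ccr7 and Ackr4.

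The 21 mice formed 6 groups, and in all of them the mouse Apoe gene was replaced on both alleles by a human APOE allele. The parental APOE lines were kept on a C57BL6 background. The parental groups E2H, E3H and E4H (homozygous for APOE2, APOE3 and APOE4, 3 mice each) were 9 to 10 months old. PS/E2H (4 mice), PS/E3H (4 mice) and PS/E4H (4 mice) were the same lines crossed to PS19, which carries a human P301S mutant tau transgene in the heterozygous state, and were killed when their hindlimbs became paralyzed. PS19 came from a mixed B6/C3H background, so tau transgene, paralysis, age and residual background cannot be told apart in a PS19 against parental comparison. According to the methods all mice were male except for 1 female in E4H, 1 in PS/E2H and 2 in PS/E4H, and the labels do not say which mice these were. Bulk tissue was sequenced, so a change in the number of expressing cells and a change in RNA per cell cannot be told apart. Total counts per mouse were 59265459 to 75932183. Levels are given as CPM, which are counts scaled to the library size of each mouse after TMM normalisation in edgeR, not to its total count. The cortical genes Tbr1 and Slc17a7 had group means of 76.5 to 108.6 and 751 to 1054 CPM. In contrast, 4 hindbrain and cord genes summed to at most 3.02 CPM.

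CCL21 and CCL19 are the ligands of CCR7, a G protein-coupled receptor that guides naive T cells and mature dendritic cells. In lymphoid organs both ligands are made by stromal cells, and CCL21 is also made by lymphatic endothelium and held on the surface of vessels. ACKR4 binds the same ligands without G protein signalling and removes them. In the mouse, Ccl21 is a family of nearly identical copies whose number differs among strains. The Ccl21a product is known as the serine form and that of the other copies as the leucine form.

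The sequences of the copies are shown because they set how far their reads can be told apart. In the GENCODE M21 annotation (GRCm38) Gm21541 is at chr4:41903610-41904743, Gm13304 at chr4:42114817-42115917, Ccl21b at chr4:42255767-42256432 and Gm10591 at chr4:42612195-42612860, each on the + strand. Ccl19 (chr4:42754525-42756577) and Ccl21a (chr4:42772860-42773993) lie on the − strand beyond them, whereas Ccr7 is on chromosome 11 (99144196 to 99155077) and Ackr4 on chromosome 9 (104084157 to 104126933). The coding sequence has 402 bases in every copy. It was identical in Ccl21b, Gm21541, Gm13304 and Gm10591, and Ccl21a differed from them at 2 positions, T84A and C194T, counted from the A of the start codon with the Ccl21a base first. The second turns the serine codon tca of Ccl21a, codon 65, into the leucine codon tta. Coding positions 64 to 214 are printed 5′ to 3′ with the differing bases in capitals:
Ccl21a: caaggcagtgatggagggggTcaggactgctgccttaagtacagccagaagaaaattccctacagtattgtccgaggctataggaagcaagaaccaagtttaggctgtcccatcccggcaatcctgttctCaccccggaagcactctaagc
Ccl21b, Gm21541, Gm13304 and Gm10591: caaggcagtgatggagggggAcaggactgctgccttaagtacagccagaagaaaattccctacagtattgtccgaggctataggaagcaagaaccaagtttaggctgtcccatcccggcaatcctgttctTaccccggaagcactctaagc

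The upstream sequence was almost as alike. In the RefSeq promoter table (GRCm38.p6, 250 bases before to 50 after the start; 7 of the 8 genes had an entry, all but Ccr7), the Gm13304 and Gm10591 promoters were identical, the Gm21541 promoter differed from both at 1 base, and the Ccl21a promoter differed from that of Gm21541 at 2 bases, 1 upstream and 1 after the start. The Ccl21b entry lies away from the gene as annotated here and was not compared. The stretch with the upstream difference is printed for Ccl21a (chr4:42774042-42774161, − strand) and Gm21541 (chr4:41903442-41903561, + strand), the differing base in capitals:
Ccl21a: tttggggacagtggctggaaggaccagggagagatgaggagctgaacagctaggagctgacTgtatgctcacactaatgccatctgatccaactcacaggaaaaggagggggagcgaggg
Gm21541: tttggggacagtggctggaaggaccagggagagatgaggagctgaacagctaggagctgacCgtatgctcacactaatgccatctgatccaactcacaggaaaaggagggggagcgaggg
The letters TATAAA, searched on both strands, were in none of the copy promoters and in 13.6% of all 32851 promoters in the table.

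All 50-base windows of the Ccl21b, Gm13304 and Gm10591 transcripts also occurred in another gene, as did 97.1% of those of Gm21541 and 71.6% of those of Ccl21a. Ccl19 shared 52.0% of its windows, mainly with Gm2564 and the pseudogenes Ccl19-ps3 and Gm12407, while Ccr7 and Ackr4 shared none. How the deposited counts treated reads that fit several copies is not given in the sources used here. The split of reads among the copies is therefore uncertain, and their sum is given beside each.

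All 5 Ccl21 copies were close to 0 in both APOE2 groups. In the 4 APOE3 and APOE4 groups all copies but Ccl21a were readily counted, while Ccl21a had 3 to 63 counts. The summed copies had 49, 28 and 15 counts in the 3 E2H mice and 40, 44, 25 and 25 in the 4 PS/E2H mice. In E3H mice they had 1659, 1304 and 1209 counts, and in E4H mice 1053, 1146 and 1218. PS/E3H mice had 854, 408, 1197 and 1557 counts and PS/E4H mice 1397, 1234, 1191 and 871. The lowest APOE3 or APOE4 mouse, PS/E3H replicate 2, thus lay above the highest APOE2 mouse, and the groups did not overlap.

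In CPM, the summed copies were at 0.450 ± 0.225 in E2H (SD, n = 3) and 0.539 ± 0.161 in PS/E2H (SD, n = 4). They were at 19.7 ± 3.56 in E3H, 15.8 ± 0.591 in E4H (SD, n = 3 each), 14.9 ± 7.06 in PS/E3H and 18.95 ± 3.85 in PS/E4H (SD, n = 4 each). The order of the means was E3H, PS/E4H, E4H, PS/E3H, PS/E2H and E2H, and neighbouring groups in this order overlapped except at the step from PS/E3H to PS/E2H. E3H was 43.7 times as high as E2H and PS/E3H 27.7 times as high as PS/E2H, and the ratio was 34.97 for E4H over E2H and 35.2 for PS/E4H over PS/E2H. E3H was 1.25 times as high as E4H, with overlapping mice, although in Gm10591 alone all E3H mice (4.11 CPM or more) were above all E4H mice (3.91 CPM or less). The annotated Gm10591 transcript is identical to that of Ccl21b, so this depends on how reads were split between them. How many of all genes separate E3H from E4H mice in this way was not counted. E3H replicate 1 had 431 counts for Gm10591 and 545 for Ccl21b, and replicate 2 had 550 and 204.

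Ccl21b, with its reading frame identical to 3 other copies, had 10, 7 and 2 counts in E2H mice and 8, 9, 4 and 7 in PS/E2H mice. It had 545, 204 and 361 counts in E3H, 263, 329 and 372 in E4H, 210, 89, 350 and 417 in PS/E3H and 368, 393, 321 and 291 in PS/E4H. Every APOE3 and APOE4 mouse was above every APOE2 mouse, the nearest being apart by 9.22 times in CPM. The same held for Gm21541 (nearest mice 9.79 times apart), Gm13304 (9.96 times) and Gm10591 (14.1 times). These 4 copies averaged 31.8 to 52.7 times more CPM in the 14 APOE3 and APOE4 mice than in the 7 APOE2 mice. The copies were chosen for this pattern, and among all 22863 genes that passed the low count filter 0.114% had all 7 APOE2 mice below all 14 others.

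Ccl21a, the serine copy, stood apart. It had 12, 1 and 6 counts in E2H and 3, 14, 0 and 2 in PS/E2H, against 61, 51 and 39 in E3H, 22, 47 and 32 in E4H, 41, 3, 29 and 45 in PS/E3H and 63, 27, 51 and 16 in PS/E4H. PS/E3H replicate 2, with 3 counts, fell inside the APOE2 range. The mean was 6.77 times higher in the APOE3 and APOE4 mice than in the APOE2 mice, a smaller ratio than for any other copy. Ccl21a held 38 of the 226 summed counts of the APOE2 mice (16.8%) and 527 of 16298 in the others (3.23%).

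**Figure D1:**
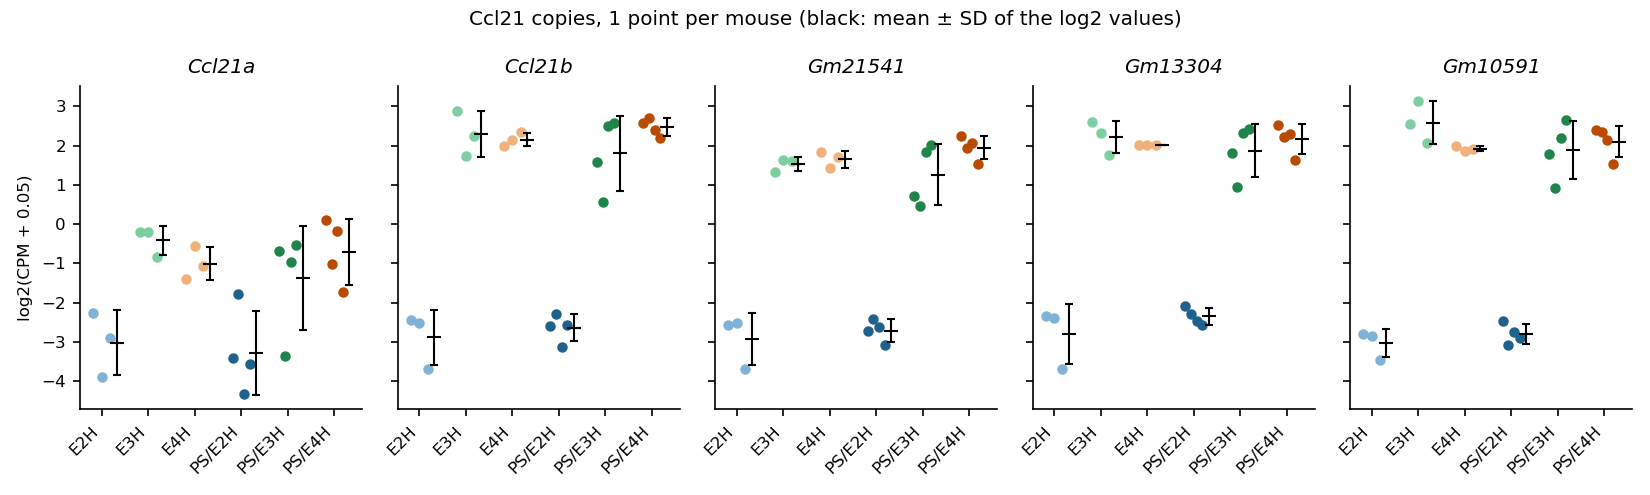
Levels of the 5 Ccl21 copies as log2(CPM + 0.05), 1 point per mouse in each of the 6 groups on the horizontal axis, with the mean and SD in black. The 7 APOE2 mice form the low band in every panel; in Ccl21a alone 1 PS/E3H mouse reaches into it.

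Per transcript length, the leucine copies were also above Ccl21a. In E3H mice the deposited FPKM (fragments scaled to transcript length and library size) was 6.89 ± 2.74 for Gm10591, 5.57 ± 2.16 for Ccl21b, 5.40 ± 1.43 for Gm13304, 3.12 ± 0.439 for Gm21541 and 0.778 ± 0.203 for Ccl21a (SD, n = 3 each). In these mice Ccl19 was at 0.352 ± 0.166 FPKM, Ackr4 at 0.0456 ± 0.0164 and Ccr7 at 0.0182 ± 0.0316 (SD, n = 3 each). The ligand copies as a family thus exceeded their receptor in FPKM in the APOE3 forebrain, while in PS/E2H mice Ccl19, at 0.612 ± 0.0908 FPKM, was above the summed copies at 0.518 ± 0.164 (SD, n = 4 each), with overlapping error.

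Within groups the copies moved together. Over the 14 APOE3 and APOE4 mice the correlation of log2 CPM, taken as deviations from each group mean, lay between 0.601 and 0.900 for the 10 pairs of copies. The copies share reads and libraries, so these values describe the tables and are not independent. Among the APOE3 and APOE4 groups PS/E3H was the most variable (coefficient of variation of the summed copies 47.3%, against 3.75% to 20.3% in the other 3), with the summed copies at 11.99 and 6.50 CPM in replicates 1 and 2 and 19.1 and 22.2 CPM in replicates 3 and 4. E4H was the tightest, at 15.7, 15.2 and 16.4 CPM. In E2H, at 15 to 49 counts, the coefficient of variation was 49.97%. Deviations of Ccl19, Ccr7 and Ackr4 in the same mice had correlations with each copy between -0.165 and 0.509.

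The tau comparison asks whether the axis differed between PS19 mice and their parental line, a contrast that played no part in choosing the copies. The Ccl21 copies did not pass the test in any line. With all 21 mice in 1 edgeR quasi-likelihood fit and APOE line as a factor, the log2 fold change of PS19 over parental was 0.02 ± 0.24 for Ccl21b (SE, adjusted p = 0.974), 0.12 ± 0.21 for Gm21541 (adjusted p = 0.759), 0.04 ± 0.20 for Gm13304 (adjusted p = 0.921), -0.14 ± 0.22 for Gm10591 (adjusted p = 0.722) and -0.16 ± 0.47 for Ccl21a (adjusted p = 0.862). The summed copies averaged 2.39 on the log2(CPM + 0.05) scale in PS19 mice and 2.38 in parental mice, a difference of 0.01 after stratifying by line (exact permutation test, two-sided, p = 0.967). Within lines the difference was 0.32 in E2 (exact permutation p = 0.543), -0.53 in E3 (exact permutation p = 0.343) and 0.24 in E4 (exact permutation p = 0.257), where 35 regroupings allow no p below 0.0286. In PS/E3H against E3H the estimates ran from -0.73 ± 0.62 (Ccl21a) to -0.13 ± 0.36 (Gm21541), and in PS/E4H against E4H from 0.18 ± 0.20 (Gm13304) to 0.45 ± 0.52 (Ccl21a). In PS/E2H against E2H all 5 copies fell below the filter on low counts and were not tested by edgeR.

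Ccl19, Ccr7 and Ackr4, in contrast, were higher in PS19 mice and passed the pooled test, as did 595 of 22863 genes (2.6%) where a call needs an adjusted p under 0.05 with at least a 2-fold difference. These 3 genes are described in turn.

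Ccl19, the other CCR7 ligand, had 11, 36 and 3 counts in E2H, 39, 19 and 15 in E3H and 13, 12 and 5 in E4H mice. PS/E2H mice had 47, 31, 41 and 32 counts, PS/E3H mice 20, 37, 58 and 44 and PS/E4H mice 36, 33, 45 and 29. All PS/E4H mice were above all E4H mice, whereas the E2 and E3 pairs overlapped. The share of all genes with such a separation was not counted. In the E4 pair 6282 of 20844 genes had an unadjusted p under 0.05 (edgeR). Over all lines the mean rose from 0.252 ± 0.204 CPM (SD, n = 9) to 0.595 ± 0.157 CPM (SD, n = 12), a log2 fold change of 1.31 ± 0.36 (SE, adjusted p = 0.0118 by edgeR with Benjamini-Hochberg adjustment). The exact permutation test stratified by line gave p = 0.000490. Within lines Ccl19 passed only in PS/E4H against E4H, at 2.03 ± 0.51 (SE, adjusted p = 0.0254 by edgeR), where 621 of 20844 genes were called (2.98%). That call was lost when any of the 3 E4H mice was left out (adjusted p = 0.0581, 0.0888 and 0.0713 by edgeR without replicates 1, 2 and 3). The estimate was 1.16 ± 0.73 in the E2 line (adjusted p = 0.649) and 0.80 ± 0.52 in the E3 line (adjusted p = 0.425, edgeR). Ccl19-ps3, a pseudogene that shares windows with Ccl19, had 45 counts over the 9 parental and 212 over the 12 PS19 mice, Gm2564 had 18 and 77, Gm12407 had 19 and 39, and Ccl19-ps1 had 82 and 126 (reads that fit both genes cannot be told apart).

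Ccr7, the signalling receptor, was rarely seen in parental forebrain. It had 0, 0 and 15 counts in E2H, 0, 0 and 9 in E3H and 4, 0 and 0 in E4H mice, so that 3 of 9 parental mice had any count. PS/E2H mice had 0, 28, 23 and 11, PS/E3H mice 8, 13, 19 and 40 and PS/E4H mice 16, 19, 4 and 12 counts, so that 11 of 12 PS19 mice had some. The mean was 0.0425 ± 0.0738 CPM in parental mice (SD, n = 9) and 0.254 ± 0.166 CPM in PS19 mice (SD, n = 12), and 7 of the 12 PS19 mice were above every parental mouse. The E4 groups did not overlap, by a narrow margin (0.0650 CPM in the lowest PS/E4H and 0.0595 CPM in the highest E4H mouse), and the share of all genes with such a separation was not counted. Ccr7 passed the low count filter mainly through PS19 mice, so a higher PS19 level is partly tied to its being tested. The pooled log2 fold change was 2.60 ± 0.84 (SE, adjusted p = 0.0305 by edgeR), and the stratified exact permutation test gave p = 0.00243. At these counts the call was not firm: leaving out E3H replicate 1 or 2, E4H replicate 2 or 3, PS/E2H replicate 2 or PS/E3H replicate 4 moved the adjusted p (edgeR) to between 0.0513 and 0.0617, and without the filter on low counts it was 0.0556. Without E2H replicate 3, which held 15 of the 28 parental counts, the estimate rose to 3.53 (adjusted p = 0.00851, edgeR), and over all single mice left out it ran from 2.41 to 3.53. With the replicate block it was 2.83 (adjusted p = 0.0517, edgeR). Within lines Ccr7 did not pass in the edgeR fits, with adjusted p = 0.743 in the E2 line, 0.190 in the E3 line and 0.0821 in the E4 line.

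Ackr4, the scavenging receptor, had 39, 22 and 17 counts in E2H, 14, 15 and 29 in E3H and 39, 25 and 10 in E4H mice, against 65, 60, 78 and 21 in PS/E2H, 61, 54, 52 and 82 in PS/E3H and 28, 47, 83 and 59 in PS/E4H mice. In 10 of 12 PS19 mice it was above every parental mouse, and the E3 groups did not overlap. The share of all genes with such a separation was not counted. In the E3 pair 4541 of 21251 genes had an unadjusted p under 0.05 (edgeR). The mean rose from 0.333 ± 0.149 CPM (SD, n = 9) to 0.899 ± 0.294 CPM (SD, n = 12), a log2 fold change of 1.44 ± 0.28 (SE, adjusted p = 0.000580 by edgeR), with p = 0.000257 in the stratified exact permutation test. By limma on log2(FPKM + 0.1) the estimate was 0.69, under 2-fold (adjusted p = 0.00240), and the call was lost, while that of Ccl19 was kept at 1.18 (adjusted p = 0.00186). Within lines the estimate was 1.77 ± 0.39 in PS/E3H against E3H (adjusted p = 0.0292 by edgeR), where 281 of 21251 genes were called (1.32%). It was 1.23 ± 0.50 in the E2 line (adjusted p = 0.406), where 0.485% of genes were called, and 1.32 ± 0.54 in the E4 line (adjusted p = 0.131, edgeR). Leaving out 1 mouse at a time ended the E3 call in 6 of 7 cases, with adjusted p values (edgeR) from 0.0507 without PS/E3H replicate 3 to 0.127 without E3H replicate 1, and was kept at 0.0229 without PS/E3H replicate 1.

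**Figure D2:**
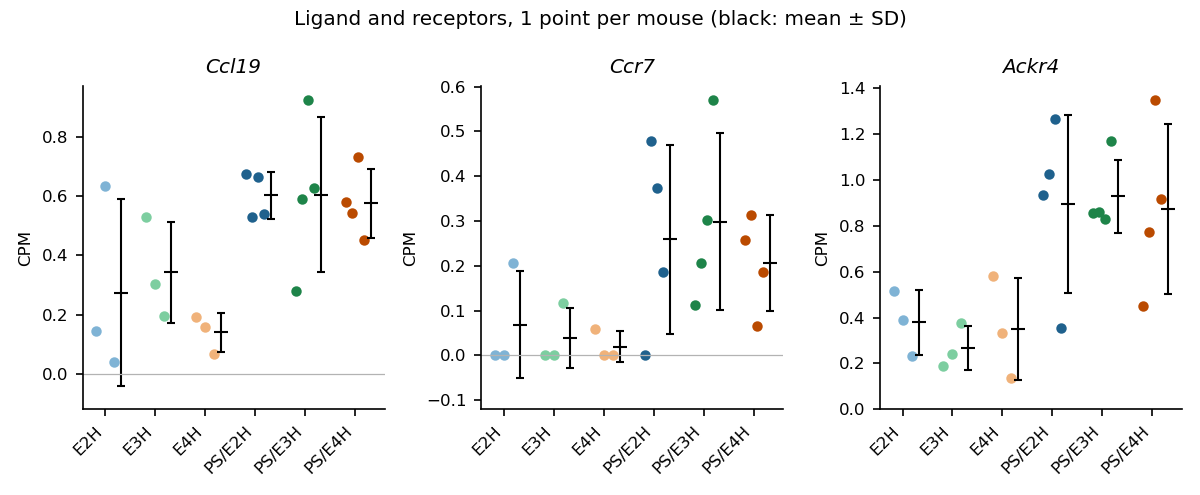
CPM of Ccl19, Ccr7 and Ackr4 on linear axes, 1 point per mouse in the 6 groups, with the mean and SD in black. In all 3 panels the PS19 groups lie mostly above the parental groups, and 6 of the 9 parental mice have no Ccr7 count.

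**Figure D3:**
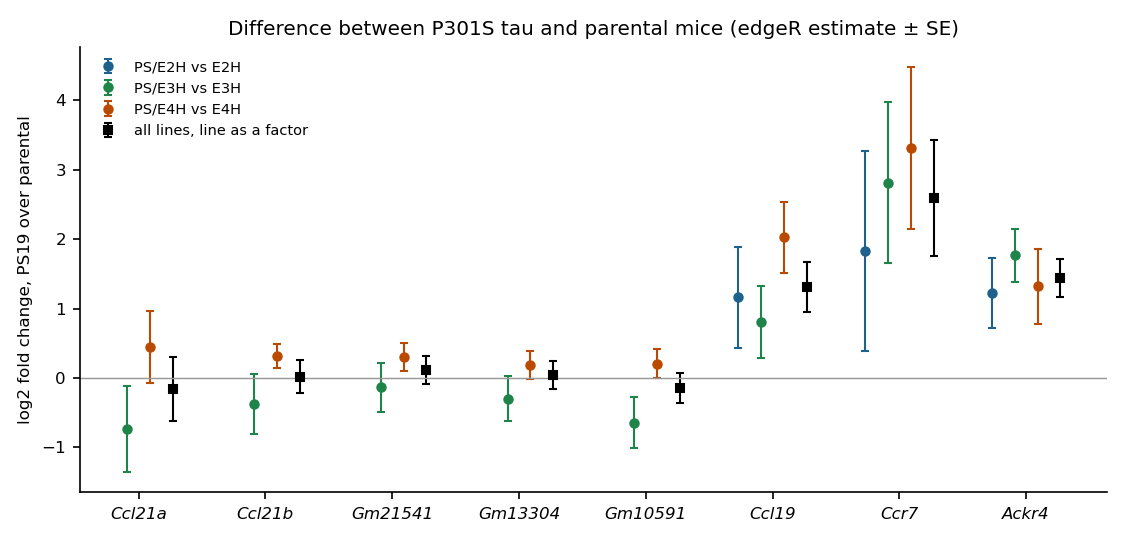
Log2 fold change of PS19 over parental mice for the 8 genes (vertical axis, edgeR estimate ± SE) within each APOE line and over all lines with line as a factor. The 5 copies lie around 0 (no point in the E2 line, where they were not tested) and Ccl19, Ccr7 and Ackr4 lie above it.

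The tau effect was next compared between lines, with the interaction term of an edgeR fit for each pair of lines. None of the 8 genes passed in any of the 3 pairs, and no gene of the whole table did, so the share called was 0% (0 of 22133, 22212 and 22031 genes by edgeR, with 1265, 847 and 2223 at an unadjusted p under 0.05 and 12, 9 and 107 called by DESeq2). No member had an unadjusted p under 0.05 in these fits. The most marked estimate for Ccl19 was 1.22 ± 0.70 more log2 units in the E4 than in the E3 line (edgeR, adjusted p = 0.9999). That Ccl19 passed only in the E4 line and Ackr4 only in the E3 line does not show that the lines differed in the effect. The opposite signs of the copies in the E3 and E4 lines were not resolved either, at 0.69 ± 0.52 for Ccl21b and 0.85 ± 0.47 for Gm10591 (E4 minus E3, adjusted p = 0.9999 for each, edgeR).

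Differences of Ccl19, Ccr7 and Ackr4 between APOE lines were not detectable at this depth and number of mice. Over the 6 line comparisons none of the 3 was called by edgeR or DESeq2, and none had an unadjusted edgeR p under 0.05. Ccr7 passed the low count filter only among PS19 groups. The shares of genes called were 0.144% (E2H against E3H), 0.1% (E4H against E3H) and 0.187% (E4H against E2H) among parental groups and 0.108%, 0.0197% and 0.109% in the same order among PS19 groups. DESeq2 called more, at 0.375%, 0.172% and 0.457% among parental and 0.305%, 0.0639% and 0.376% among PS19 groups. The smallest unadjusted p (0.0779, edgeR) was that of Ccl19 in E4H against E3H, at -1.29 ± 0.66 (adjusted p = 0.781 by edgeR). Among PS19 mice the Ccl19 means were 0.603 ± 0.0791 CPM in PS/E2H, 0.605 ± 0.263 in PS/E3H and 0.577 ± 0.117 in PS/E4H (SD, n = 4 each), and PS/E2H and PS/E3H differed by -0.01 ± 0.39 log2 units (adjusted p = 0.995 by edgeR). Ccl19 lies between the Gm10591 and Ccl21a copies on chromosome 4, and at 0.462 ± 0.260 CPM in the 7 APOE2 mice and 0.441 ± 0.248 CPM in the 14 others its groups overlapped. In the 4 PS/E2H mice, 3 of which had a Ccr7 count, Ccl19 was at 0.530 to 0.677 CPM and the summed copies were at 0.406 to 0.752 CPM.

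Genes that act around the axis were read from 3 lists. Of 15 genes of CCR7 signalling, the G protein, arrestin and migration machinery, 2 were called higher and 0 lower in the pooled tau fit (2.6% of all genes called), with a median log2 fold change of 0.02 against -0.01 over all genes. They were Dock2, a Rac activator of migrating leukocytes (1.33 ± 0.14, adjusted p = 3.53e-07, edgeR), and Rac2, the leukocyte Rac (1.28 ± 0.16, adjusted p = 6.1e-06, edgeR). Pik3cg was at 0.86 ± 0.14 log2 units (adjusted p = 7.77e-05, edgeR), under 2-fold. Widely expressed members moved by less: Gnai2 was at 0.33 ± 0.06 and Rhoa at 0.24 ± 0.04 log2 units (adjusted p = 0.000422 and 0.000362, edgeR). Others were below 0, such as Arrb2 at -0.12 ± 0.06 (adjusted p = 0.172, edgeR). Of the lymphoid chemokine system, 10 of 11 genes were tested and 2 were called, both higher: Cxcl13, the B cell attractant of follicles (2.39 ± 0.47, adjusted p = 0.000841, edgeR), and Cxcr4, a leukocyte homing receptor (1.33 ± 0.25, adjusted p = 0.000425, edgeR). Its median was -0.02. At an adjusted p under 0.05 (edgeR) but less than 2-fold, 3 members were lower: Ccl27a, a skin-type T cell chemokine (-0.36 ± 0.07), Ackr1, a scavenging chemokine receptor (-0.31 ± 0.08), and Cxcl12, the CXCR4 ligand (-0.27 ± 0.09). The summed level of all 11 genes was lower in PS19 mice in each line, without overlap: 139 to 161.9 CPM in PS/E2H against 162.5 to 174 in E2H, 130.1 to 153.5 in PS/E3H against 169 to 180.3 in E3H, and 124 to 145 in PS/E4H against 152 to 174 in E4H. Most of this sum came from Cxcl12 (group means 43.6 to 62.5 CPM), Ccl27a (38.4 to 60.7) and Ackr1 (25.0 to 37.1). The lower sum thus mostly restates these 3 genes. The called genes Cxcl13 and Cxcr4 weighed little in it, at group means of at most 1.08 and 3.36 CPM. How often other gene sets separate in this way was not counted. Cxcr5, the CXCL13 receptor, stayed at 0 to 11 counts in every mouse. Of 10 genes from lymphotoxin to NF-κB, which induce these chemokines in lymphoid stroma, none was called at 2-fold. At an adjusted p under 0.05 (edgeR) Tnfrsf1a, a TNF receptor, was at 0.98 ± 0.10, Nfkb2 at 0.58 ± 0.13 and Ltbr, the lymphotoxin receptor, at 0.57 ± 0.08 log2 units, while its ligand genes were at 0.64 ± 0.30 (Ltb, adjusted p = 0.143) and -0.28 ± 0.53 (Lta, adjusted p = 0.774).

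**Figure D4:**
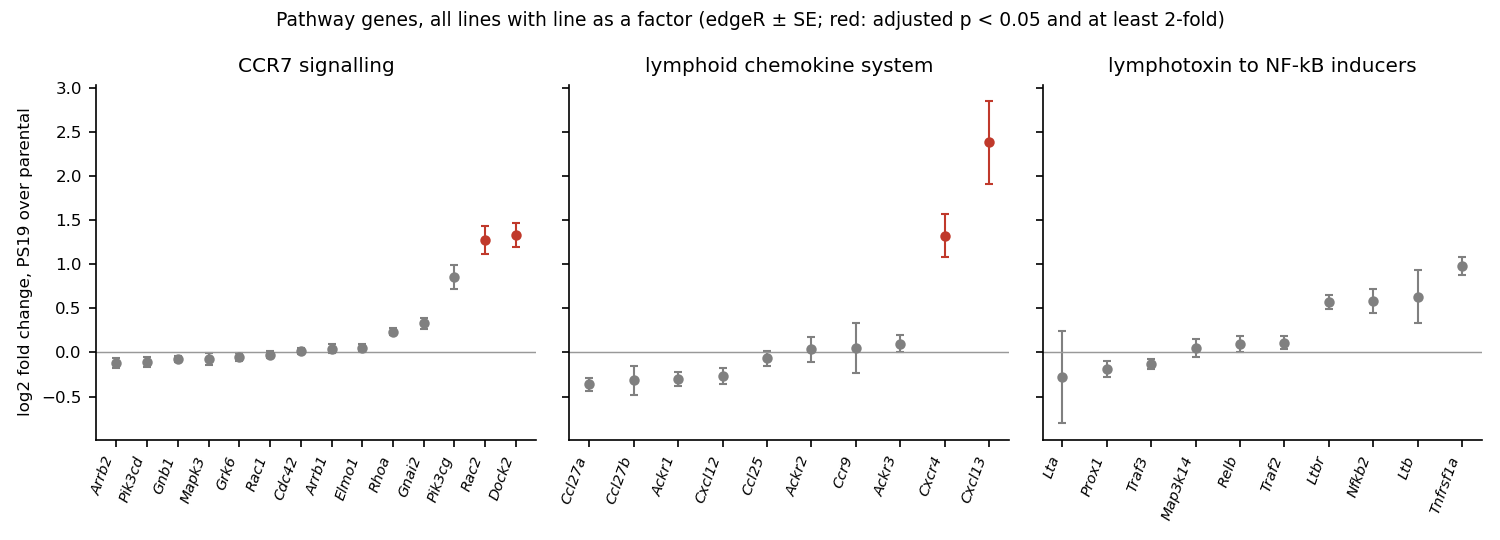
Log2 fold change of PS19 over parental mice (vertical axis, edgeR estimate ± SE, line as a factor) for the tested genes of the 3 lists, ordered by estimate, with 1 CCR7 signalling gene not shown. Called genes are red: Dock2 and Rac2, then Cxcl13 and Cxcr4, and none in the lymphotoxin list.

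Markers of cells that carry or make these molecules were read in the same fit, where 2.6% of all genes were called. Of 12 T cell genes Cd8b1 was called higher (3.73 ± 1.08, adjusted p = 0.0159, edgeR), with 0 counts in all E3H and E4H mice, 0 to 4 in E2H mice and 0 to 16 in PS19 mice. Cd8b1 passed the low count filter through PS19 mice, so a higher PS19 level is partly tied to its being tested. The list summed to 24.9 to 34.35 CPM in parental and 19.5 to 32.6 CPM in PS19 mice, and Cd3e did not pass (0.52 ± 0.66, adjusted p = 0.648, edgeR). Most of this sum came from Cd4, Trbc2 and Lef1 (group means 7.82 to 10.3, 5.74 to 9.74 and 6.12 to 8.55 CPM). Cd3d, Cd3g, Cd8a and Cd8b1 had group means of at most 0.310 CPM, so the sum cannot show a change in them. Of 9 dendritic cell genes 8 were tested and Ccl22, a chemokine of mature dendritic cells, was called higher (1.12 ± 0.37, adjusted p = 0.0343, edgeR). The list summed to 151 to 189 CPM in parental and 128 to 184 CPM in PS19 mice, and Zbtb46 was at -0.41 ± 0.09 log2 units. Fscn1 alone had group means of 123.2 to 147.8 CPM, so the sum mostly follows that gene. Xcr1 and Clec9a had group means of at most 0.0997 and 0.348 CPM and hardly enter it. Of 6 lymphatic endothelium genes Lyve1 (1.29 ± 0.24, adjusted p = 0.000422, edgeR) and Pdpn (1.04 ± 0.16, adjusted p = 5.69e-05, edgeR) were called higher. Both are also expressed outside lymphatic vessels, Lyve1 on border macrophages and Pdpn in astrocytes and meninges. The rest were not called: Mmrn1 was at 2.55 ± 1.16, Flt4 at 0.34 ± 0.18, Reln at -0.05 ± 0.07 and Prox1 at -0.19 ± 0.09 log2 units. The list summed to 82.6 to 111 CPM in parental and 91.3 to 132 CPM in PS19 mice. Most of this sum came from Reln and Prox1 (group means 53.2 to 69.3 and 21.3 to 28.75 CPM). Mmrn1, a more restricted lymphatic gene, had 0 to 6 counts in parental and 0 to 24 in PS19 mice and hardly enters it.

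Of 4 microglia genes C1qa was called higher (2.6% of all genes called), and the list summed to 143 to 192.5 CPM in parental and 223.5 to 402 CPM in PS19 mice, with no overlap. How often other gene sets separate in this way was not counted. C1qa alone had group means of 37.7 to 55.1 CPM in parental and 148 to 194.5 CPM in PS19 mice, so the rise mostly follows that gene. Cx3cr1 was at 0.70 ± 0.11 and Tmem119 at 0.43 ± 0.09 log2 units (adjusted p = 5.69e-05 and 0.00122, edgeR), both under 2-fold. None of the 6 meningeal fibroblast, 4 choroid plexus, 4 endothelium or 4 B cell genes was called, although Col1a2 was at 0.87 ± 0.15 log2 units (adjusted p = 0.00015, edgeR). The meningeal list summed to 84.9 to 129 CPM in parental and 121 to 203 CPM in PS19 mice, the choroid plexus list to 428 to 737 and 396 to 1176 CPM, and the B cell list to 0.2205 to 0.814 and 0.287 to 2.04 CPM. The endothelium list summed to 82.85 to 116 CPM in parental and 77.9 to 120.5 CPM in PS19 mice. P2ry12, another microglia gene, was at -0.06 ± 0.11 log2 units (adjusted p = 0.768, edgeR), while C1qa was at 1.84 ± 0.12. The median log2 fold change was 1.18 in the B cell, 0.69 in the lymphatic endothelium, 0.56 in the microglia, 0.47 in the T cell, 0.39 in the meningeal fibroblast, 0.38 in the choroid plexus, 0.07 in the dendritic cell and 0.05 in the endothelium list, against -0.01 over all genes. The part of these cells in the differences of Ccl19, Ccr7 and Ackr4 was not tested.

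The copies lie in a stretch of chromosome 4 with many other duplicated genes. Of 59 annotated genes from 250 kb before Gm21541 to 250 kb beyond Ccl21a, 54 passed the filter and 49 of these were not copies. In 8 of the 49 all APOE2 mice were below all others, where the whole table had 0.114%. All 8 were among the 37 genes that shared at least 20% of their windows with other genes, and none among the 12 with under 20%. The pseudogene Gm17081 had a log2 ratio of APOE2 over other mice of -4.11, Gm13301 one of -3.52, Gm5859 one of -3.40 and Gm17167 one of -3.33. The Fam205a genes were lower by less, with log2 ratios of -0.90 (Fam205a4), -0.91 (Fam205a3) and -0.92 (Fam205a2) between the copies and -0.72 (Fam205a1) just beyond Ccl21a. The median log2 ratio was -0.90 in the 37 duplicated genes and 0.11 in the 12 others, which ranged from -0.14 to 0.74. On the flanks Cntfr was at 0.11, Dctn3 at 0.27, Phf24 at -0.06 and Vcp at 0.02. Gene copy number was not measured here.

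**Figure D5:**
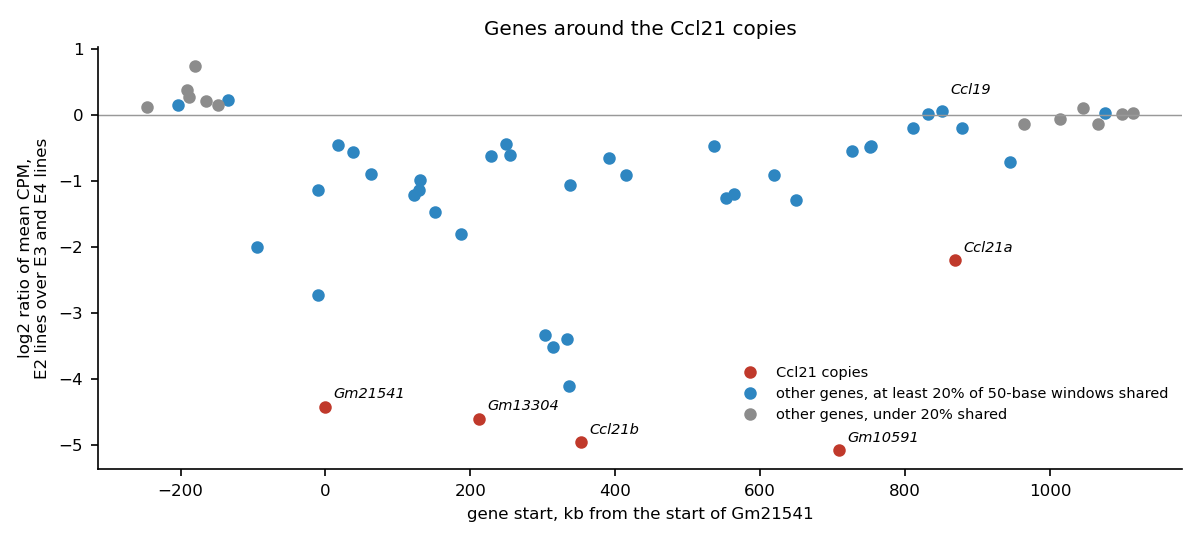
Log2 ratio of mean CPM in the 7 APOE2 mice over the 14 APOE3 and APOE4 mice (vertical axis) for the 54 genes that passed the filter, by distance of the gene start from Gm21541 in kb (horizontal axis). The copies are red, other genes with at least 20% of windows shared blue and the rest grey; the grey genes stay near 0 while red and blue genes reach -5.08 and -4.11.

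Genes whose pattern over the 21 mice was most like that of Ccl21b were ranked by Pearson's r of log2 CPM among 22862 genes. The nearest were Gm13304 (r = 0.992), Gm21541 (r = 0.989) and Gm10591 (r = 0.982), and 5 further genes of the chromosome 4 stretch were also above the tenth gene outside it. Ccl21a had rank 21 (r = 0.849), while Ccl19 (r = 0.08), Ccr7 (r = -0.01) and Ackr4 (r = -0.06) showed no such likeness. Outside the stretch the 10 nearest were Gm27177 (r = 0.942) and Gm16867 (r = 0.934) on chromosome 14, Gm45104 (r = 0.923), Zfp14 (r = 0.905), Gm44954 (r = 0.897) and Zfp264 (r = 0.891) on chromosome 7, Gm17655 (r = 0.898) on chromosome 5, and 3 genes whose IDs the annotation used here does not name. All 10 had every APOE2 mouse below every other mouse (0.114% of all genes did), which their choice by likeness to Ccl21b largely fixed. Once group means were taken out, their correlation with Ccl21b ran from -0.317 to 0.461. All 21 mice share the same tables and line structure, and these correlations are descriptions only.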

How the data were processed

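Forebrain poly(A) RNA of 21 mice in 6 groups was sequenced as stranded, paired-end libraries. Per the labels and the study's methods, reads were trimmed with Cutadapt and aligned with HISAT2 to the mouse genome (Ensembl release 101; build GRCm38.p5 per the submitters' processing notes), and StringTie, gffcompare, ballgown, DESeq2 and edgeR followed; versions, and how reads fitting several genes were counted, are not given in the sources used here. The authors deposited raw counts per gene (55401 genes) and, in a separate table, FPKM (37538 genes, each with a count in some mouse). Total counts ran from 59265459 to 75932183, and genes with few counts carry wide errors; SD and SE cover differences between mice as well as counting error.

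Counts were tested with edgeR 4.0.16 (R 4.3.3; TMM scaling, filterByExpr with a minimum count of 10 and a minimum total of 15, quasi-likelihood test, Benjamini-Hochberg adjustment over all genes that passed). A call required an adjusted p under 0.05 with at least a 2-fold difference, and an interaction at an adjusted p under 0.05 alone. Fits were made within each of 3 lines, over all lines with line as a factor, for 6 line pairs and for 3 interactions. CPM are counts scaled to the TMM-normalised library size of each mouse, not to its total count. Log2 levels used a pseudocount of 0.05. Exact permutation tests, two-sided, regrouped mice within lines. The scripts were tested on simulated counts. Alternatives were DESeq2 1.42.0 (its test and its size factors), no filter on low counts, limma 3.58.1 on log2(FPKM + 0.1) and log2(FPKM + 1), a replicate block, and leaving out each mouse; the exact tests of Ccl19, Ccr7 and Ackr4 and the fit without PS/E3H replicates 1 and 2 were chosen after seeing the data.

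Groups and replicate numbers came from the sample titles, and replicates were separate mice. Of 48 pairs of mice with the same number in different groups, 8 had a correlation of deviations over 0.1 (range -0.223 to 0.252), so the numbers were not taken to pair mice. Gene names, transcripts and positions came from GENCODE M21 (55141 genes named), which is older than the authors' annotation, and promoters from RefSeq. The members, gene lists and tests were chosen with earlier results of these data known. Genes named were the 8 members, genes sharing at least 20% of a member's 50-base windows, the genes within 250 kb of the copies, the pathway and marker lists, and the 10 genes outside the stretch most correlated with Ccl21b. Records of the same names on unplaced scaffolds were not analysed here. Values of some genes of these lists are not reported here.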

Additional observations from a re-analysis of the deposited data

Results flagged for a closer look

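Ackr4 in PS/E3H had 1 mouse apart from the other 3: replicate 4 was at 1.169 CPM, while the others lay close together from 0.829 CPM upward. Its gap to the nearest mouse was 0.907 of the range of the group, over the critical value of 0.829 of Dixon's test for 4 mice. It was the only such value among 27 sets of 4 values tested, which are the 8 genes and the summed copies in the 3 PS19 groups. These sets come from the same 12 mice and the copies vary together, so they are not independent, and chance alone flags about 1 in 20 of independent sets. Without this mouse the PS/E3H against E3H estimate for Ackr4 was 1.64 on the log2 scale (adjusted p = 0.0852 by edgeR).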

How the results depend on the processing

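Of the 3 members called in the pooled tau fit, 1 was called by limma on log2(FPKM + 0.1) and 0 on log2(FPKM + 1), and 2 to 3 when single mice were left out. The larger pseudocounts shrink the fold changes of low genes: the pooled estimates on log2(FPKM + 1) were 0.38 for Ccl19, 0.13 for Ccr7 and 0.13 for Ackr4, at adjusted p = 0.00182, 0.0193 and 0.00343 by limma. Of the 2 members called within lines, 1 and 0 were called on those scales, 0 with the replicate block and 1 to 2 with single mice left out. With the replicate block the adjusted p (edgeR) was 0.0517 for Ccr7 in the pooled fit, 0.102 for Ackr4 in the E3 line and 0.101 for Ccl19 in the E4 line.

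The copies' tau estimates lay near 0 and changed sign easily, with no call. The summed copies were at -0.0423 with a pseudocount of 0.5 CPM and between -0.131 and 0.126 without single mice (-0.108 to 0.617 in the E2 line). Ccl21b was at -0.0310 with the replicate block and at -0.00630 and -0.0385 by limma on log2(FPKM + 0.1) and log2(FPKM + 1), where Gm13304 was at -0.0454 on the latter. Without single mice the ranges were -0.442 to 0.00399 for Ccl21a, -0.0594 to 0.189 for Ccl21b, -0.0400 to 0.15 for Gm13304 and -0.222 to 0.0363 for Gm10591. Without PS/E3H replicates 1 and 2 together the estimates were 0.0242 for Ccl21a, 0.257 for Ccl21b, 0.220 for Gm13304 and 0.0889 for Gm10591. Gm21541 in the E3 line ranged from -0.413 to 0.0814.

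Counts over all genes moved more. The pooled 595 became 344 and 81 by limma on the smaller and larger pseudocount. PS/E2H against E2H (100) gave 55 without the filter, 261 by DESeq2, 34 by limma on log2(FPKM + 1) and 30 to 99 without single mice. PS/E3H against E3H (281) gave 173 without the filter, 157 with the replicate block, 187 and 60 by limma, and 77 to 494 without single mice. PS/E4H against E4H (621) gave 133 by limma on log2(FPKM + 1) and 384 to 702 without single mice. Between lines, PS/E4H against PS/E3H (4) gave 13 by DESeq2, 2 without the filter, 0 with the replicate block (edgeR; 1000 genes at an unadjusted p under 0.05) and 0 to 6 without single mice, and the other 5 line pairs (21 to 39) gave 36 to 95 by DESeq2 and 12 to 25 with the replicate block. The cause of these shifts was not tested. The APOE line direction of every copy, and the absence of interaction and line calls among Ccl19, Ccr7 and Ackr4, held under each alternative run. With 3 or 4 mice a group and few counts for Ccr7, small differences were not detectable.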
